A study of Mus musculus with 30 samples.

Results

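The genes described here encode the proteins of the cytosolic ribosome. They were chosen by symbol, as protein-coding genes named Rpl or Rps with a number, Rplp0 to Rplp2 or Rpsa, and the Rps6k kinases were left out. This gave 82 genes of the 20093 in the 14 deposited tables, of which 32 encode small-subunit proteins and 50 large-subunit proteins. Of these, 81 were in every table, and Rpl39l was in the small intestine tables alone.

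All samples were freshly isolated mouse intestinal cells, measured by 3′ RNA sequencing with 1 library per sample. Every mouse, controls included, was C57BL/6 and carried the ColVI-cre transgene with the Rosa mTmG reporter, in which Cre switches a cell and its descendants from membrane Tomato to membrane GFP, so that GFP marks cells in which the collagen VI promoter fragment was active at some time and not a defined cell type. The 10 groups were GFP-positive, GFP-negative (Tomato) and unsorted cells of the colon with DSS-induced colitis, the same 3 kinds of cells of the normal colon, and high GFP, low GFP, GFP-negative and unsorted cells of the normal small intestine. DSS is dextran sulfate sodium, a chemical that injures the colonic epithelium. Each group had 3 replicates, but for unsorted cells of the small intestine replicate 1 was not analysed here, so 29 libraries entered. The labels give no age, DSS dose or day, and do not say which animals gave which library, so p-values measure the spread between these samples.

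An estimated 1228000 to 4425000 reads per library were assigned to the genes of the deposited tables, which is not the full sequencing depth. The labelled cell type was checked on 10 mesenchymal marker genes, whose summed level was 9249 to 27928 CPM (a share of a library's normalised counts scaled to a common total) in the sorted libraries and 2490 to 17356 in the unsorted ones, while immune markers summed to 17.8 to 1080 in sorted and 2745 to 11686 in unsorted libraries. The library numbers in the labels run in separate ranges for the normal colon and the DSS colon, so the effect of DSS and that of the library series cannot be told apart in any DSS comparison below. In bulk RNA, fewer cells of a type and less RNA per cell cannot be told apart either.

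A ribosome has a small subunit, which reads the mRNA, and a large subunit, which joins the amino acids, and each holds single copies of most of its proteins. Ribosomal protein mRNAs are among the most abundant in a cell, and most of them begin with a tract of pyrimidines, the 5′ terminal oligopyrimidine (TOP) motif, through which the mTORC1 pathway sets their translation. In mammals these genes also have many processed pseudogenes, inserted copies of the mRNA, whose 3′ ends can be nearly the same as that of the parent gene.

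The start regions of members that pass the tests below are shown because they hold a run of pyrimidines near the annotated start or lack one. Each window covers 15 bases on either side of the RefSeq start in GRCm38.p6 and reads 5′ to 3′ on the gene's strand. Capitals mark a run of at least 5 pyrimidines that opens with C and begins within 10 bases of the start. Rpl28 is at chr7:4792950-4792979 on the plus strand, Rps15 at chr10:80292416-80292445 on the plus strand, Rpl6 at chr5:121204486-121204515 on the plus strand, Rpl41 at chr10:128549154-128549183 on the minus strand, Rps19 at chr7:24884577-24884606 on the plus strand and Rpl22l1 at chr3:28805493-28805522 on the plus strand.
Rpl28: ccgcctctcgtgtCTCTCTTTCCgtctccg
Rps15: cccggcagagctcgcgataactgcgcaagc
Rpl6: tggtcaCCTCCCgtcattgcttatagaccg
Rpl41: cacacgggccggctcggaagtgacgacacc
Rps19: tccgaaatctcgcgagactcgacgcccgac
Rpl22l1: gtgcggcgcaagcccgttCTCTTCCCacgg

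A RefSeq start was found for 61 of the 82 members, and 33 of the 61 (54.1%) held such a run, against 7828 of 26964 other genes (29.0%). Of the members that moved with DSS and had a RefSeq start, Rpl28, Rpl6, Rpl39, Rplp2 and Rpl22l1 held such a run. Rps15, Rpl41, Rpl37, Rpl35a and Rps19 did not. For other members that moved, among them Rps27a, Rpl8 and Rpl23a, no RefSeq start was found. In Rpl6 the run ends before the annotated start, so it is not in the annotated mRNA, and such runs were counted too. A match therefore describes the letters of this window only and not a TOP motif. The first listed start was used for each gene.

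The ribosomal protein genes covered a wide range of levels, and their rank order was broadly alike in all groups. Levels are given in CPM, and because a 3′ library gives about 1 read per transcript whatever its length, they were set side by side between genes without a length correction. They come from each gene's own row, so the order leaves out reads assigned to near-identical gene copies, described below. For Rplp2, such a copy held 74.8% of the combined counts in GFP-positive colon cells. Averaged over the 10 groups, the highest members by own row were Rpl27a with 2491 CPM, the stalk protein gene Rplp1 with 2489, Rps9 with 1614, Rpl13 with 1556 and Rps29 with 1435. The lowest were Rpl39l with 4.97 in the small intestine, Rpl6l with 20.5, Rps27l with 38.9, Rpl29 with 45.2 and Rpl7l1 with 57.9. The 10 highest members together held 34.3% of the counts of the family. Spearman's rho of member levels between groups was 0.711 to 0.978 over 45 pairs of groups, given as a description, since the groups share the method and some share normalisation.

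Some members resemble a more abundant member. Rpl22l1, a paralog of Rpl22, was at 244 ± 13.9 CPM in DSS GFP-positive cells, against 152 ± 14.2 in normal GFP-positive cells (SD, n = 3 each), while Rpl22 was at 350 ± 40.9 and 544 ± 15.8. Rps27l, a paralog of Rps27 and a p53 target in human cells, was at 17.0 ± 4.99 in DSS GFP-positive cells, against 27.6 ± 7.15 in normal GFP-positive cells, and Rps27 was at 192 ± 22.5 and 239 ± 42.6. Rpl39l, the paralog of Rpl39 known from the male germ line, reached at most 12.8 CPM in any small intestine library, where Rpl39 was at 702 to 1064.

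**Figure D1:**
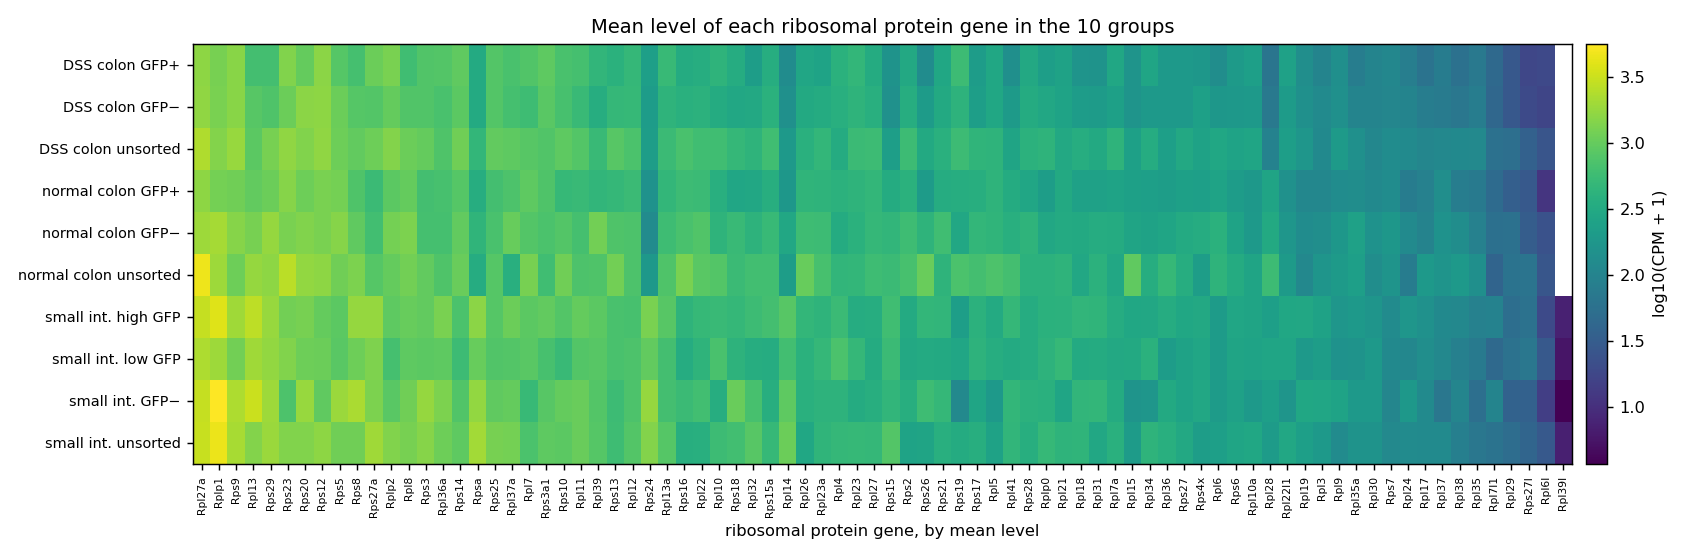
Mean level of each ribosomal protein gene (columns, by mean level) in the 10 groups (rows), as log10(CPM + 1); white marks a gene with no row. Rpl27a and Rplp1 stand at the high end with 2491 and 2489 CPM, and Rpl14, Rps24 and Rpsa are brighter in the small intestine rows.

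Most members stayed within a 3-fold range between groups, with no share of all genes set beside this. For Rpl37a the lowest group mean, 371 CPM, was that of normal unsorted colon cells, whose values come from tables with other gene coordinates, as given below. For 55 of the 81 members with a level in all 10 groups, the lowest and the highest group mean differed by less than 3-fold, and for 9 they differed by more than 5-fold. Rps24, a small-subunit protein gene mutated in some patients with Diamond-Blackfan anaemia, had the widest range at 14.1-fold. It was at 125 to 232 CPM as group means in the colon and at 960 to 1759 in the small intestine. With Rpl14 and Rpsa, the laminin receptor precursor, it was one of 3 members higher in every small intestine library than in every colon library, as were 0.804% of 13176 genes, and no member was lower, where 2.48% of genes were. Small intestine and colon libraries come from tables that were normalised apart, and the tables place Rpl14 and Rpsa on other coordinates in the small intestine, so these tissue levels were not tested.

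Rpl28 and Rps15 were the members that were lower in all 9 DSS libraries than in all 20 others, and no member was higher in all 9. Over 13176 genes with a level in all groups, 21 (0.159%) were lower in this way and 49 (0.372%) higher. Rpl28 is a large-subunit protein that budding yeast lacks, and Rps15 is a protein of the small-subunit head. Rpl28 was at 63.3 ± 2.35, 71.2 ± 6.40 and 93.6 ± 21.2 CPM in DSS GFP-positive, GFP-negative and unsorted colon cells, against 265 ± 46.9, 320 ± 19.0 and 553 ± 161 in the same cells of the normal colon (SD, n = 3 each). In the small intestine Rpl28 had group means of 204 to 277. Rps15 was at 161 ± 9.58, 151 ± 5.44 and 223 ± 33.9 in the same DSS cells, against 337 ± 59.9, 462 ± 60.1 and 551 ± 152 in the normal colon.

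The family as a whole held a small share of each library's counts. The share was 3.40 ± 0.04% in DSS GFP-positive, 3.47 ± 0.20% in DSS GFP-negative and 4.57 ± 0.10% in DSS unsorted cells, against 3.61 ± 0.27%, 4.55 ± 0.72% and 5.66 ± 0.66% in the same cells of the normal colon (SD, n = 3 each). In GFP-negative and in unsorted cells every DSS library was below every normal library, whereas in GFP-positive cells the groups overlapped. In the small intestine the share was 5.49 ± 1.20% in high GFP, 4.51 ± 0.90% in low GFP and 5.87 ± 0.78% in GFP-negative cells (SD, n = 3 each), and 5.14% and 6.32% in the 2 unsorted libraries. The DSS colon groups had the smallest spread, and the small intestine groups the largest.

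**Figure D2:**
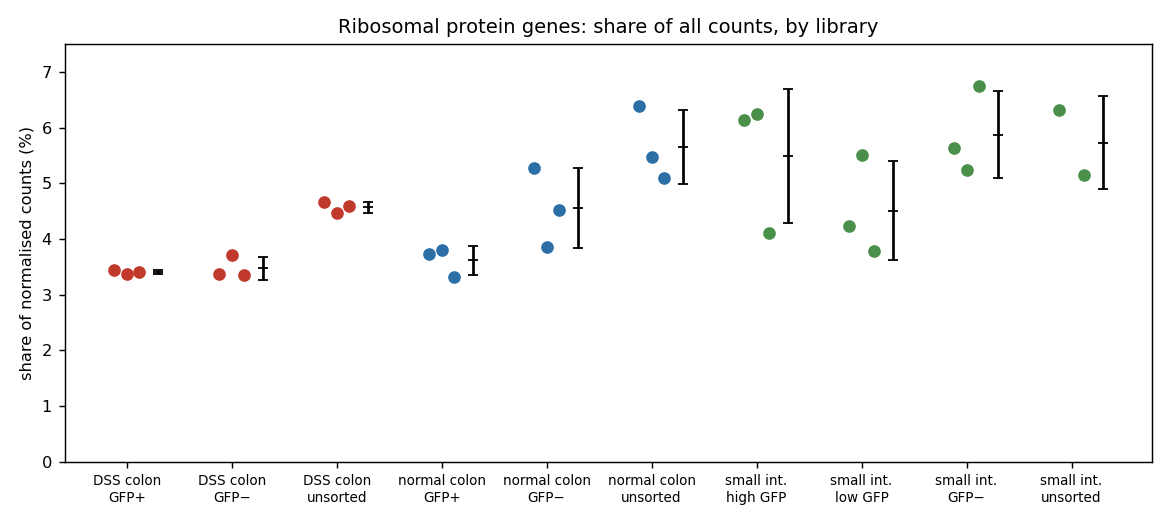
Share of all normalised counts (%) held by the ribosomal protein genes in each library (points), with the group mean and SD; red is DSS colon, blue normal colon, green small intestine. The 3 DSS GFP-positive libraries lie at 3.36 to 3.44%, and the 3 DSS GFP-negative libraries at 3.35 to 3.70% lie below the 3 normal GFP-negative libraries at 3.85 to 5.28%.

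The response to DSS was tested per gene with limma over all genes of a table and Benjamini-Hochberg adjustment, and a fold change is the log2 difference of normalised counts plus 1. In GFP-positive cells 9 of 81 members fell and 4 rose, read against 9.46% of all 12976 genes that fell and 10.2% that rose. The median of the members was -0.03 on the log2 scale, against -0.01 over all genes. With libraries scaled to equal totals, 14 members fell and 3 rose, and over all genes 1585 fell and 991 rose, against 1227 and 1328 with the deposited scale.

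Among the members that fell in GFP-positive cells, Rpl28 stood lowest. It had 231, 234 and 227 normalised counts in DSS libraries, against 860, 984 and 802 in normal libraries, and so the groups lay far apart. Its log2 fold change was -1.93 ± 0.19 (SE), with an adjusted p of 2.47e-05 by limma. Rpl41, a very short basic peptide that lies between the subunits, had 558, 502 and 490 in DSS libraries, against 1112, 962 and 1328 in normal libraries (log2 fold change -1.12 ± 0.20, limma adjusted p = 0.00206).

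Rps15 had 553, 608 and 597 normalised counts in DSS GFP-positive libraries, against 1000, 1239 and 1129 in normal ones (-0.93 ± 0.19, limma adjusted p = 0.00465). Rpl6, a large-subunit protein, had 580, 476 and 419, against 739, 885 and 999 (-0.83 ± 0.21, limma adjusted p = 0.0138). In Rpl28, Rpl41, Rps15 and Rpl6 every DSS library was below every normal library. Such a gap held for 21 of 81 members and for 18.8% of all genes. Rpl37, Rpl8, which lies near the catalytic centre, and Rpl23a, which lies at the exit of the peptide tunnel, also fell, with log2 fold changes of -0.66, -0.66 and -0.62 and limma adjusted p of 0.025, 0.0418 and 0.0335.

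Rps27a, Rps19, Rpl22l1 and Rplp2 rose in GFP-positive cells. Rps27a, which is made as a fusion with ubiquitin, had 4311, 3918 and 3561 normalised counts in DSS libraries, against 2816, 1748 and 974 in normal libraries (1.22 ± 0.32, limma adjusted p = 0.0237). Rps19, the gene most often mutated in human Diamond-Blackfan anaemia, had 2268, 2055 and 1850, against 961, 1153 and 1415 (0.82 ± 0.21, limma adjusted p = 0.0158). Rpl22l1 had 937, 895 and 842, against 486, 467 and 571 (0.81 ± 0.19, limma adjusted p = 0.00952).

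Rplp2, a stalk protein, had 4409, 5149 and 4607 in DSS GFP-positive libraries, against 3696, 3074 and 2031 in normal ones (0.73 ± 0.24, limma adjusted p = 0.0474), but this call was lost when a near-identical row was added to it, as given below. For Rps24 the fold change was 1.02 and for Rpl6l 1.10, and neither passed the test. Rps24 had 813, 887 and 837 in DSS libraries, against 1063, 314 and 215 in normal ones, where replicate 1 alone was high. In the alternatives, which leave out a library in turn or change the scaling or the model, Rpl28, Rpl41 and Rps15 kept their calls in all 14.

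Each of the other calls named in GFP-positive cells was lost without at least one library. All genes have fewer libraries in such a fit, and shares of all genes are not set beside the counts below. The counts thus do not show whether the losses are particular to the members. Without DSS GFP-positive replicate 1 no member rose and 5 fell, and the calls of Rps27a, Rps19, Rpl22l1, Rplp2, Rpl37, Rpl8 and Rpl23a ended. Without replicate 2, 1 rose and 4 fell, and without replicate 3, 2 rose and 4 fell, with Rps27a, Rplp2, Rpl6, Rpl37, Rpl8 and Rpl23a lost in both and Rps19 lost without replicate 2. Of the normal GFP-positive libraries, leaving out replicate 1 ended the calls of Rpl8 and Rpl23a and gave 7 that rose, replicate 2 that of Rps27a, and replicate 3 those of Rpl8, Rplp2 and Rpl37.

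**Figure D3:**
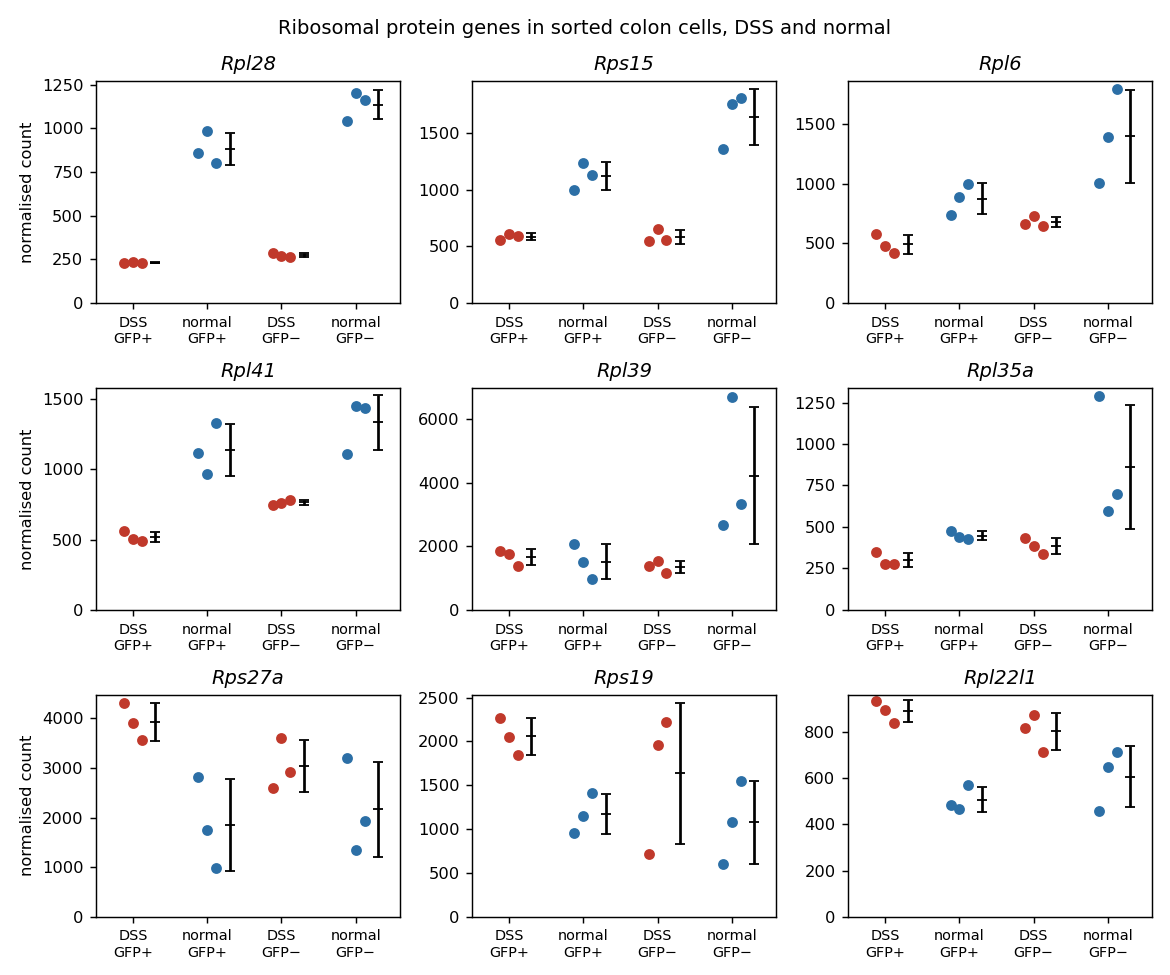
Normalised counts per library (points: red DSS, blue normal) of 9 ribosomal protein genes in GFP-positive and GFP-negative colon cells, with the mean and SD beside them. Rpl28 lies at 227 to 288 in all 6 DSS libraries and at 802 to 1205 in all 6 normal libraries, while Rpl39 is high in normal GFP-negative libraries alone.

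In GFP-negative cells 5 of 81 members fell and none rose, read against 4.27% of all 13025 genes that fell and 6.03% that rose. With no adjustment, 19 of 81 members had a p under 0.05, where 27.2% of all genes did. The members' median was -0.33 on the log2 scale, against -0.02 over all genes, and 64 of 81 members had a negative fold change. With equal totals, 9 members fell and none rose, and over all genes 776 fell and 612 rose, against 556 and 785 with the deposited scale.

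Rpl28 again stood lowest in GFP-negative cells, with 288, 272 and 264 normalised counts in DSS libraries, against 1041, 1205 and 1162 in normal libraries (-2.04 ± 0.23, limma adjusted p = 0.000263). Rps15 had 545, 656 and 557, against 1357, 1762 and 1811 (-1.48 ± 0.25, limma adjusted p = 0.00344). Rpl6 had 661, 731 and 646, against 1008, 1390 and 1790 (-1.0 ± 0.27, limma adjusted p = 0.0374). In these 3 genes, which fell in both cell populations, DSS and normal libraries did not overlap. In GFP-negative cells 20 of 81 members were lower without overlap, as were 15.1% of all genes.

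Rpl39, a small protein that lines the tunnel through which the new chain leaves, had 1386, 1534 and 1168 normalised counts in DSS GFP-negative libraries, against 2660, 6709 and 3334 in normal ones (-1.53 ± 0.34, limma adjusted p = 0.0164). Rpl35a, mutated in some human Diamond-Blackfan anaemia, had 435, 383 and 335, against 1287, 596 and 698 (-1.09 ± 0.30, limma adjusted p = 0.0421). Both had 1 normal library far above the other two, replicate 2 for Rpl39 and replicate 1 for Rpl35a. Rps24 had the highest fold change, 0.99 ± 0.32, with an adjusted p of 0.0688 by limma, and Rps27a, Rps19, Rps12 and Rps3a1 followed with 0.57, 0.55, 0.46 and 0.43, none of them past the threshold.

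Rpl28 and Rps15 kept their calls in GFP-negative cells in all 14 alternatives. Without DSS GFP-negative replicate 1, 3 members fell, and without replicate 2 or 3, 2 fell, with Rpl6 and Rpl35a lost each time and Rpl39 lost without replicate 2 or 3. Without normal GFP-negative replicate 1, 12 fell and 2 rose, without replicate 2 the calls of Rpl6 and Rpl39 ended, and without replicate 3 that of Rpl6. Here too, shares of all genes are not set beside these counts.

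The fold changes in the GFP-positive and GFP-negative populations, which share no library, were alike in rank. Over the 81 members Pearson's r was 0.746 and Spearman's rho 0.748, and r was 0.701 without Rpl28, but over all 12419 genes tested in both it was 0.734, so the likeness was not particular to this family. These correlations are across genes, which are not independent replicates, and both responses compare libraries of the same number ranges. Of the members, 42 were negative in both populations, 16 positive in both, 22 positive in GFP-positive and negative in GFP-negative cells, and 1 the reverse.

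No member passed the test of the difference between the responses, GFP-positive minus GFP-negative, over the 12 sorted colon libraries. This compares with 0.0148% of 13488 genes higher and 0.0371% lower, and 5 of 81 members had an unadjusted p under 0.05, where 8.01% of all genes did. Rpl39 came first with a difference of 1.71 (95% interval 0.73 to 2.68, limma adjusted p = 0.345), since in GFP-positive cells it had 1856, 1749 and 1369 normalised counts in DSS libraries, against 2069, 1513 and 974 in normal libraries, which overlap. Next were Rpl6l at 1.35, Rps18 at 1.05, Rplp2 at 0.90 and Rpl7a at 0.65. Negative differences included those of Rpl17 at -0.36, Rps20 at -0.34 and Rpl41 at -0.33.

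For Rpl28 the difference was 0.12, with an interval of -0.44 to 0.68, so the 2 populations could still differ by that much. The median half-width of the members' intervals was 0.75 on the log2 scale.

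**Figure D4:**
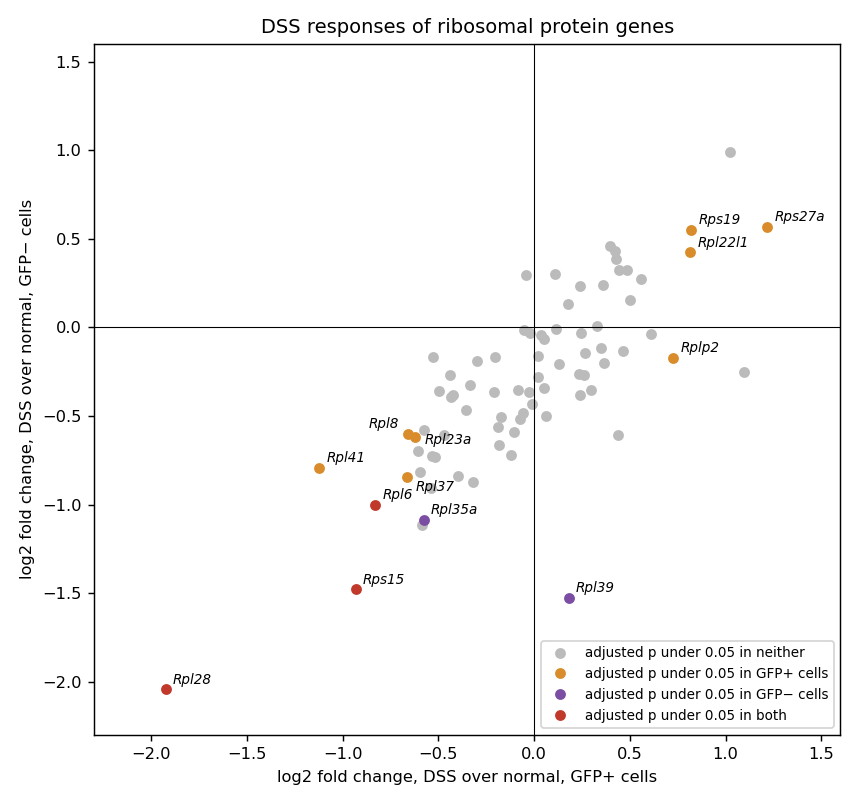
Log2 fold change of the ribosomal protein genes, DSS over normal, in GFP-positive cells (x axis) and GFP-negative cells (y axis); colours mark adjusted p under 0.05. Rpl28, Rps15 and Rpl6 are past the threshold in both populations, and Rpl39 is at 0.18 in GFP-positive and -1.53 in GFP-negative cells.

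By subunit, the 32 small-subunit genes had 2 that rose and 2 that fell in GFP-positive cells, with a median of -0.01. The 49 large-subunit genes had 2 that rose and 7 that fell, with a median of -0.03. Of all genes 10.2% rose and 9.46% fell. In GFP-negative cells 1 of 32 small-subunit and 4 of 49 large-subunit genes fell, where 4.27% of all genes did, with medians of -0.27 and -0.35. A difference between the subunits was not tested. The stalk, a flexible arm of the large subunit that recruits elongation factors, is built on Rplp0 with Rplp1 and Rplp2. Rplp0 had a fold change of 0.17 in GFP-positive and 0.13 in GFP-negative cells and Rplp1 of 0.24 and -0.38, none of them past the threshold.

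The paralogs Rpl22 and Rpl22l1 had fold changes of opposite sign. Rpl22 had 1184, 1258 and 1385 normalised counts in DSS GFP-positive libraries, against 1918, 1632 and 1929 in normal ones, a change of -0.52 with a limma adjusted p of 0.075, while Rpl22l1 rose. In GFP-negative cells Rpl22 had 1590, 1757 and 1460, against 3421, 2316 and 2370, and Rpl22l1 had 818, 877 and 716, against 458, 650 and 714. On this deposited scale the groups of both genes did not overlap in either population. Of all genes, 19.2% were higher and 18.8% lower without overlap in GFP-positive cells, and 16.3% and 15.1% in GFP-negative cells. In CPM the groups of Rpl22l1 overlapped in GFP-negative cells, at 191 to 222 in DSS libraries, against 133 to 196 in normal ones. In GFP-negative cells neither gene passed the test, with limma adjusted p of 0.1 for Rpl22 and 0.309 for Rpl22l1.

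Rpl5 and Rpl11, which with the 5S RNA bind Mdm2 and stabilise p53 when ribosome assembly fails, had fold changes of -0.44 and 0.46 in GFP-positive cells and -0.39 and -0.13 in GFP-negative cells, with limma adjusted p of 0.116 to 0.802. Rps6, the substrate of the S6 kinases, was at 0.05 and -0.34 in the same order of cells, and Rpl3 and Rpl10, which act near the catalytic centre, were at -0.02 and -0.03 and at 0.35 and -0.12. The values of Rps6 and Rpl10 are from their own rows and leave out the near-identical copies described below. Rps3, at the mRNA entry channel, had 2509, 3127 and 2759 normalised counts in DSS GFP-positive libraries, against 2223, 1871 and 2140 in normal ones, and 2832, 3356 and 2662, against 2536, 2061 and 2170, in GFP-negative cells. On this scale its groups did not overlap in either population, to be read against the shares of all genes given above. In CPM they overlapped in GFP-negative cells, at 710 to 806 in DSS libraries, against 580 to 734 in normal ones. Its limma adjusted p was 0.143 in GFP-positive and 0.358 in GFP-negative cells.

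Rpl38, known from Hox mRNA translation in mouse embryos, had -0.40 and -0.84 (limma adjusted p = 0.165 and 0.094 in GFP-positive and GFP-negative cells). Rpl13a, which in human monocytes leaves the ribosome to silence inflammatory mRNAs, had 0.24 and -0.26, and Rps4x, Rpsa, Rps27, Rps27l, Rpl7 and Rpl7l1 ranged over -0.66 to 0.02 with none past the threshold.

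In the authors' deposited table all 81 members had an FDR of 1.0 in GFP-positive cells, where 45 of 16653 genes were under 0.05. In GFP-negative cells the lowest FDR of a member in the authors' deposited table was 0.681, and 76 of 16386 genes were under 0.05.

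Near-identical gene copies share reads with many members. The last 200 bases of 178 transcripts of 81 members were searched against the mouse transcripts of GENCODE M21, and 49 of the 82 members had at least 1 other gene with 95% identity over 150 bases or more, with 59 for Rpl21 and 38 for Rps2. No member was near-identical to another member. Of the copies, 83 had a row in the GFP-positive DSS table, 69 of them annotated as pseudogenes and 13 as protein-coding. For 19 members the copies held more than 5% of the counts of member and copies together.

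Rplp2 had the copy row with the highest counts, in the protein-coding gene Wdr89. That row averaged 11029 normalised counts in DSS GFP-positive libraries, against 11689 in normal ones, and held 74.8% of the combined counts. Copies held a larger part for Rps7, at 83.6%, and Rpl9, at 82.3%, in GFP-positive cells. With the Wdr89 row added, the fold change of Rplp2 was 0.13 with a limma adjusted p of 0.723. For Rpl10a the log2 ratio of means in GFP-positive cells was 0.49 on its own row and -0.20 with copies added. It went from 0.369 to -0.037 for Rpl10, from 0.033 to -0.215 for Rps6 and from 0.241 to -0.011 for Rpl13a. For Rps7 it went the other way, from -0.102 to 0.174. The ratio changed by over 0.1 for 14 members in GFP-positive and 14 in GFP-negative cells. Added copies left 3 members that rose and 9 that fell in GFP-positive cells, and none that rose and 6 that fell in GFP-negative cells, this alternative having been chosen after the data were seen. Shares of all genes are not set beside these counts, so they do not show whether the calls are particular to the members.

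Copies without a row were common among the genes named above. Rps27a and Rps19 each had 10, Rps15 had 5, Rpl28 had 4, Rpl35a had 14, Rpl23a had 7 and Rpl41 had 1 near-identical gene, none with a row, whereas Rpl6, Rpl8, Rpl37, Rpl22l1 and Rpl39 had none. Of the members called in both populations, only Rpl6 thus had no near-identical gene by this search.

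**Figure D5:**
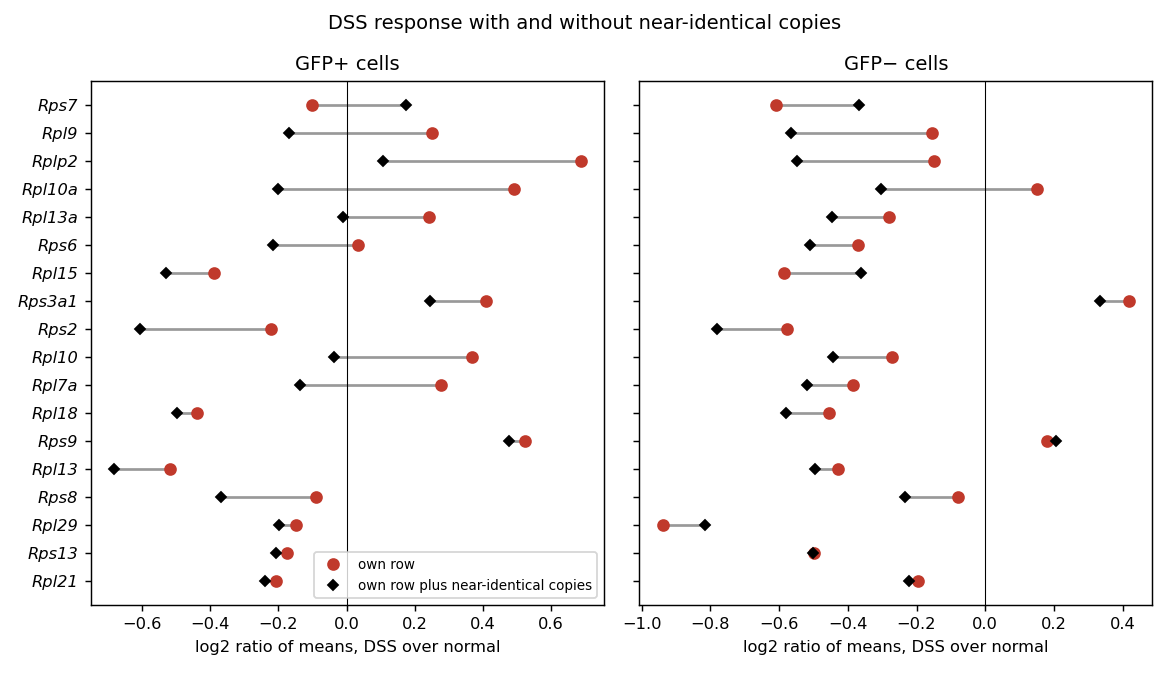
Log2 ratio of group means, DSS over normal, for members whose near-identical copies hold over 5% of the combined counts, from the member's own row (circles) and with its copies added (diamonds), in GFP-positive (left) and GFP-negative cells (right). Rplp2 is at 0.69 on its own row and 0.11 with its copy in GFP-positive cells.

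Other genes of ribosome production and translation were counted from lists and are read against the same shares of all genes, 10.2% that rose and 9.46% that fell in GFP-positive cells and 6.03% and 4.27% in GFP-negative cells. Of 49 ribosome biogenesis genes tested in GFP-positive cells, 6 rose and none fell. These were Rrs1 with a log2 fold change of 2.47, Nip7 with 1.45, Sdad1 with 1.44 and Bysl with 1.16, assembly factors of the pre-ribosomes, and also Heatr1 and Rrn3, which serve RNA polymerase I. In GFP-negative cells 3 of 49 rose, Rrs1 with 2.06, Sdad1 with 1.20 and Heatr1 with 1.01, and Nop58, a protein of the small nucleolar particles, fell with -1.68.

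Of 39 translation factors and ribosome partners, 3 rose and 3 fell in GFP-positive cells. The helicase Eif4a1 rose by 1.21, Eif4g2 by 0.99 and Eif2s1 by 0.84 on the log2 scale, and Eif3l and Eif3c, subunits of the initiation factor eIF3, had -1.03 and -0.80. In GFP-negative cells Eif4g2 rose by 1.17 and Eef1a1, the factor that brings tRNA to the ribosome, had -1.03.

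Of 77 mitochondrial ribosomal protein genes 10 rose and 2 fell in GFP-positive cells, led by Mrps18b with 1.94 and Mrps6 with 1.84, with Mrpl22 at -1.24 and Mrps5 at -1.08. In GFP-negative cells 5 of 76 rose and 3 fell, with Mrps6 at 2.21, Mrps18b at 1.43, Mrps12 at 1.37 and Mrpl41 at -1.42. Of 21 genes of mTORC1, Myc and LARP control, Mycn with -1.16 and Rheb with -0.66 fell in GFP-positive cells, and the mTOR inhibitor Deptor with 0.93 and the S6 kinase Rps6kb1 with 0.83 rose in GFP-negative cells. The medians of these 4 lists lay between -0.30 and 0.12 in GFP-positive and between -0.32 and -0.03 in GFP-negative cells, and no gene of them passed the test of the difference between the responses.

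Other markers moved with DSS in the same libraries. The summed level of 10 cycling genes was 172 to 243 CPM in DSS GFP-positive libraries, against 60.2 to 82.5 in normal ones, and that of 10 mesenchymal markers was 9249 to 10855, against 19137 to 24929. In GFP-negative cells, 7 of 10 cycling genes had a row and summed to 61.5 to 87.7 in DSS libraries, against 23.7 to 45.3 in normal ones. There 9 of 10 immune markers had a row and summed to 77.8 to 226, against 246 to 1080. Their part in the fold changes of the ribosomal protein genes was not tested.

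GFP-positive cells of the DSS colon had 5 of 81 members lower than GFP-negative cells and none higher, read against 8.9% of 12570 genes lower and 8.22% higher. Rps20, of the small-subunit head, had 2797, 3195 and 3236 normalised counts in GFP-positive libraries, against 4517, 6237 and 4719 in GFP-negative libraries (-0.73 ± 0.19, limma adjusted p = 0.0156). Rpl41 had 477, 427 and 419, against 634, 647 and 666 (-0.56 ± 0.16, limma adjusted p = 0.0299). Rplp0 had 641, 709 and 719, against 1007, 1049 and 927 (-0.53 ± 0.17, limma adjusted p = 0.0404).

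In Rps20, Rpl41 and Rplp0 the GFP-positive and GFP-negative libraries did not overlap. Of 81 members 26 were lower without overlap, where 16.5% of all genes were, and 1 was higher, where 17.1% were. The count of members lower was 0 without GFP-positive replicate 1, 1 without GFP-positive replicate 2 or 3 or without GFP-negative replicate 2, and 8 without GFP-negative replicate 1. It was 2 with equal totals and 0 with limma without trend, and shares of all genes are not set beside these counts. In the same libraries 10 mesenchymal markers summed to 9249 to 10855 CPM in GFP-positive cells, against 17700 to 26669 in GFP-negative cells, and the part of this in the levels of these genes was not tested.

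In the normal colon no member differed between GFP-positive and GFP-negative cells by limma, where 2.97% of 13346 genes were higher and 3.01% lower. An unadjusted p under 0.05 was found for 13 of 81 members and for 17.3% of all genes. On the deposited scale 18 of 81 members were lower in GFP-positive cells without overlap, where 10.8% of all genes were. None was higher without overlap, where 11.2% of all genes were. In CPM the groups of some of these 18, such as Rpl28 and Rps15, overlapped. The fold change was negative for 73 of 81 members, with a median of -0.38, against 0.003 over all genes. In these cells 9 of 10 immune markers had a row and summed to 23.8 to 114 CPM in GFP-positive libraries, against 246 to 1080 in GFP-negative libraries, with no overlap, and the part of this in the members' fold changes was not tested. Rpl39 was the most extreme, with 2474, 1804 and 1157 normalised counts in GFP-positive libraries, against 3162, 7949 and 3959 in GFP-negative ones (-1.42, limma adjusted p = 0.0689). Without GFP-negative replicate 1 the number of members called lower was 1. These tables share libraries with the DSS responses, so neither comparison supports the other.

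In the small intestine no member passed the test between any pair of sorted populations. Between high GFP and GFP-negative cells 0.395% of 12412 genes were higher and 0.5% lower, between low GFP and GFP-negative cells 0.112% and 0.562% of 12445 genes, and between high and low GFP cells 0.368% and 0.0164% of 12226 genes. An unadjusted p under 0.05 was found for 5 of 82 members between high GFP and GFP-negative cells, where 10.6% of all genes had one, for 27 between low GFP and GFP-negative cells, where 16.9% had one, and for 3 between high and low GFP cells, where 7.7% had one. Rplp1 had 4313, 6004 and 2752 normalised counts in low GFP libraries, against 9865, 11004 and 18573 in GFP-negative libraries, a log2 fold change of -1.61 with a limma adjusted p of 0.0566. Its groups did not overlap, as in 18 of 82 members that were lower and in 12.5% of all genes. Without low GFP replicate 2, 1 member was called lower there. Over all genes the median was 0.06 for high GFP and 0.09 for low GFP over GFP-negative cells and -0.03 for high over low GFP cells. Members' medians were -0.09 for high GFP and -0.20 for low GFP over GFP-negative cells and 0.13 for high over low GFP cells, with intervals of a median half-width of 0.65 to 0.75. Leaving out 1 library at a time moved these medians over -0.20 to 0.11, -0.30 to -0.06 and -0.02 to 0.27, and the sign turned without high GFP replicate 3 for high GFP over GFP-negative cells and without low GFP replicate 3 for high over low GFP cells. The median for low GFP over GFP-negative cells was -0.06 without low GFP replicate 3, -0.30 without low GFP replicate 2 and -0.13 without GFP-negative replicate 3. Immune markers summed to 96.5 to 158 CPM in low GFP libraries, against 218 to 692 in GFP-negative libraries, and the part of this was not tested.

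Sorted cells were compared with unsorted cells of the same tissue by whether their libraries overlapped, with no test. In DSS GFP-positive cells 41 of 81 members were lower in every sorted library than in every unsorted library, where 26.7% of all genes were, and 1 was higher, where 22.5% were. In normal GFP-positive cells 34 members were lower (21.9% of all genes) and none higher (17.4%). In DSS GFP-negative cells 18 were lower (24.7%) and none higher (19.9%), and in normal GFP-negative cells 7 were lower (20.8%) and none higher (15.5%). The median log2 ratios to unsorted cells were -0.38 and -0.31 in DSS GFP-positive and GFP-negative cells and -0.70 and -0.29 in those of the normal colon.

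In the small intestine 10 of 82 members were lower and 5 higher in high GFP cells (27.3% and 19.7% of all genes), 26 lower and 4 higher in low GFP cells (29.4% and 20.9%) and 19 lower and 12 higher in GFP-negative cells (28.0% and 18.4%), against 2 unsorted libraries. Epithelial markers summed to 544 to 3479 CPM in unsorted libraries, against 33.3 to 442 in sorted ones, and endothelial markers to 459 to 710, against 6.26 to 493. The part of these cells in the unsorted levels of ribosomal protein genes was not tested.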

How the data were processed

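Intestinal cells of 10 groups were measured by QuantSeq 3′ RNA sequencing on an Ion Proton, per the labels' protocols. The submitters' processing notes name TopHat2, Bowtie2, DESeq and the build mm10. The sources used here give no versions and do not name the counting program or say how multiply mapped reads were treated. The 14 deposited tables each hold a pair of groups. Their scores are normalised counts, per the file headers, and since every deposited value is whole the authors rounded them after scaling, so no count test was run. The authors also deposited a DESeq FDR, log2 fold changes from group means, and each gene's GC fraction. That fraction had a Pearson correlation with the DSS fold change of -0.25 in GFP-positive and -0.301 in GFP-negative cells over the members, against -0.066 and -0.074 over all genes, given as a description.

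Depth, as reads assigned to the genes of a deposited table, was estimated from the spacing of values in each library. For 3 libraries the spacing was not resolved from 1, and 1 was used. A simulated check on 8 libraries was off by at most 0.038%. These depths limit counting precision only. No 2 libraries held identical values. The normal colon, DSS and small intestine tables use 3 sets of gene coordinates, which differ for 2 members, Rpl37a among them, between the normal colon and the DSS tables, and for 5 (Rpl14, Rpl4, Rplp1, Rps25, Rpsa) between the small intestine and the DSS tables. The same library had Rpl37a values 1.45 to 1.52 higher (log2) in the DSS-response tables than in the normal colon tables. Levels of sorted colon cells therefore come from the DSS-response tables, and those of normal unsorted cells from the normal colon tables.

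Tests used limma 3.58.1 (R 4.3.3) with trend and robust variance on log2(value + 1), for genes whose mean reached 10 in at least 1 group, with Benjamini-Hochberg adjustment over all genes tested and a threshold of 0.05. All members in a table passed this filter. On data simulated for the DSS responses of GFP-positive and GFP-negative cells, 67% and 51% of genes changed 4-fold and 20% and 2% of those changed 2-fold were recovered, so smaller changes can be missed. False calls, of genes left unchanged, were 5 of 92 calls in GFP-positive and 6 of 59 in GFP-negative cells. The scales of both DSS-response tables were alike (normal libraries had ratios of 0.836 to 0.844 to their own tables, and DSS libraries 1.17 to 1.18), so the difference was fitted over both. Copies were searched with BLAST+ 2.17.0. Genes were named by a rule: the 5 largest changes in each direction in the DSS results, the 5 highest and lowest levels, up to 3 called elsewhere, and members with known roles. Genes of the other lists are the up to 4 with the largest changes. Other genes, such as those lost without a library, were chosen after their values were seen. Some items counted here are not reported by name or drawn in the figures. Members and lists were chosen with earlier results of these data known.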

Additional observations from a re-analysis of the deposited data

How the results depend on the processing

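With libraries scaled to equal totals, of all genes or of the other genes, the DSS response of GFP-positive cells had 14 members that fell and a median of -0.15 or -0.16, with a median shift of all genes of -0.125 and -0.128. That of GFP-negative cells had 9 that fell, with shifts of -0.125 and -0.141, and DSS GFP-positive against GFP-negative cells had 2 lower. In the small intestine the shift was 0.106 and 0.1 for high GFP over GFP-negative cells. With limma without trend, 2 rose and 5 fell in GFP-positive cells, 3 fell in GFP-negative cells, and 0 were lower in DSS GFP-positive against GFP-negative cells. A pseudocount of 10 or no filter on low values each gave 1 member lower in low GFP against GFP-negative cells of the small intestine. The cause was not tested, and shares of all genes called are not set beside the counts in this section.

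Leaving out 1 library at a time gave 0 to 7 that rose, 4 to 13 that fell and a median of -0.106 to 0.0358 in DSS GFP-positive cells, the positive value without normal GFP-positive replicate 2. It gave 0 to 2 that rose and 2 to 12 that fell in DSS GFP-negative cells, 0 to 8 lower in DSS GFP-positive against GFP-negative cells, 0 to 1 lower in normal GFP-positive against GFP-negative cells, and 0 to 1 lower in low GFP against GFP-negative cells of the small intestine, where it also turned the sign of the members' median for high GFP over GFP-negative cells (-0.197 to 0.105) and for high over low GFP cells (-0.0183 to 0.272).

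Replicate numbers were not shown to pair samples, since same-numbered libraries did not all correlate above 0.1 in any comparison (-0.08 to -0.001 for the DSS response of GFP-positive cells, 0.015 to 0.168 for that of GFP-negative cells). With the replicate block, 5 members fell in DSS GFP-positive cells, 1 rose and 8 fell in DSS GFP-negative cells, 2 were lower in normal GFP-positive and 8 in DSS GFP-positive against GFP-negative cells. In high against low GFP cells of the small intestine same-numbered libraries correlated at 0.08 to 0.23 and others at up to 0.06, a hint from the data and not from the design, and no member was called with the block. In DSS GFP-positive against GFP-negative cells same-numbered libraries correlated at 0.03 to 0.16 and others at -0.09 to 0.05, ranges that overlap.

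The share of counts without Rpl27a was 3.24% in DSS GFP-positive and 4.33% in DSS unsorted cells. With near-identical copies added, chosen after seeing the data, it was 4.37%, 4.42% and 5.80% in DSS GFP-positive, GFP-negative and unsorted cells, 4.84%, 5.98% and 7.31% in those of the normal colon, and 6.83%, 5.66%, 7.20% and 7.28% in high GFP, low GFP, GFP-negative and unsorted cells of the small intestine. No result turned its direction among those past the threshold. Depth, of an estimated 1228000 to 4425000 reads assigned to genes, limits members such as Rpl39l and Rpl6l.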

Other observations

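The levels of 12 of 81 members were highest in replicate 1 of all 3 normal colon groups, Rps24 among them, as were those of 4.61% of 13855 genes. For replicate 2 this held for 1 member and 3.06% of all genes, and for replicate 3 for 2 members and 3.64%. In the DSS colon the numbers were 6 members and 5.97% of 13477 genes for replicate 1, 1 member and 2.4% for replicate 2, and 0 members and 9.65% for replicate 3. Rps24 had 1270, 375 and 256 normalised counts in the 3 normal GFP-positive libraries and 824, 343 and 405 in the 3 normal GFP-negative libraries, on the scale of the normal colon tables. The labels do not say whether libraries of the same number share an animal.

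Rps26, a small-subunit protein next to the mRNA exit, also varied widely, with 130 ± 38.3, 206 ± 119 and 320 ± 193 CPM in DSS GFP-positive, GFP-negative and unsorted cells, against 206 ± 59.9, 431 ± 274 and 1058 ± 640 in those of the normal colon (SD, n = 3 each).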
